A study of Mus musculus with 6 samples.

Results

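The 10 genes described here encode the machinery of acetylcholine in NSC-34, a mouse cell line with motor neuron features that came from a fusion of neuroblastoma with embryonic spinal cord. They were chosen by name: choline acetyltransferase (Chat), the choline transporter Slc5a7, the vesicular acetylcholine transporter Slc18a3, the cholinesterases Ache and Bche, and the nicotinic receptor subunits Chrna3, Chrna4, Chrna7, Chrnb2 and Chrnb4. All 10 were found among the 23038 genes listed. Poly-A mRNA was sequenced from 3 libraries of cells given control siRNA (siNC) and 3 libraries of cells given siRNA against Qk (siQk), collected 3 days after transfection, all of them grown in DMEM with 10% FCS. Qk encodes the Quaking RNA-binding proteins, and the comparison asks whether loss of Qk changed the level of these mRNAs. The labels name 3 different Qk siRNAs without saying which library received which, so the spread within siQk holds both culture and siRNA differences, which cannot be told apart.

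A cholinergic neuron makes acetylcholine from choline and acetyl-CoA with choline acetyltransferase, loads it into synaptic vesicles through the vesicular transporter VAChT, and takes choline back up through the high-affinity transporter CHT1. Acetylcholinesterase ends the signal in the synaptic cleft. Neuronal nicotinic receptors are pentameric cation channels, built of alpha and beta subunits or, for alpha7, of alpha subunits alone, and spinal motor neurons use acetylcholine both at muscle and at their collaterals onto interneurons.

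Total expected counts per library ran from 43000503 to 53565950. Qk, the siRNA target, was 9.67, 8.18 and 14.9 RPKM (a read count scaled to exon length and to the library total) in the siNC libraries and 1.39, 1.71 and 1.10 in those of siQk, each in the order of replicates 1 to 3, so the groups did not overlap and the siQk mean was 12.8% of the siNC mean. Its log2 fold change was -2.997 ± 0.34 (SE, n = 3 against 3; edgeR quasi-likelihood, adjusted p = 0.0149), and the call was lost without siNC replicate 1 (-3.09, adjusted p = 0.125). Over all genes tested, the median distance of a library from the gene mean ran from 0.110 to 0.185 on the log2 scale in siNC replicates 1 and 2 and siQk replicates 1 and 3, and was 0.228 in siNC replicate 3 and 0.233 in siQk replicate 2. These latter libraries stood farther from the rest, and values without them are given where they matter. In bulk RNA, fewer cells that express a gene and less of its RNA in each cell cannot be told apart.

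The line carried strong neuronal markers with an uneven set of motor neuron markers. Peripherin (Prph) was 583 RPKM at the median of the 6 libraries, the receptor tyrosine kinase Ret 187 and beta-III tubulin (Tubb3) 318, and 12 of the 14 motor neuron and neuron markers were expressed above the cut used for testing. Mnx1, the defining homeobox gene of spinal motor neurons, lay between 0 and 0.0944 RPKM, and Lhx3 between 0.0758 and 0.516 RPKM. The summed level of the list was 1031 to 1667 RPKM in siNC and 937 to 1429 in siQk. Glial markers summed to 3.27 to 3.82 RPKM in siNC and 1.95 to 3.09 in siQk over 11 genes, with Aqp4 and Cx3cr1 listed at 0 in every library. Skeletal muscle markers summed to 27.7 to 38.2 RPKM in siNC and 29.8 to 33.7 in siQk over 6 genes, nearly all from Myh3, while Myod1 and Myog had at most 1 count in any library.

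By the GENCODE annotation of GRCm38, Chat (Entrez 12647) lies on the minus strand of chromosome 14 from 32408203 to 32465989, and Slc18a3 (Entrez 20508) lies on the same strand from 32462438 to 32464850. Slc18a3 has 1 exon and sits wholly within intron 1 of Chat, the arrangement known as the cholinergic gene locus, and the annotated starts of the pair are 1139 bases apart. Chrna3 (Entrez 110834, minus strand of chromosome 9, 55010111 to 55026562) and Chrnb4 (Entrez 108015, minus strand, 55028154 to 55048779) form a cluster with Chrna5, which lies beside them on the plus strand from 54980880 to 55007779. Chrnb2 (Entrez 11444) is on chromosome 3 from 89746195 to 89764632, Chrna7 (Entrez 11441) on chromosome 7 from 63098692 to 63212569 and Chrna4 (Entrez 11438) on chromosome 2 from 181018380 to 181043546, all on the minus strand. Ache (Entrez 11423) is on the plus strand of chromosome 5 from 137287519 to 137294466, Bche (Entrez 12038) on the minus strand of chromosome 3 from 73635808 to 73708415, and Slc5a7 (Entrez 63993) on the minus strand of chromosome 17 from 54273590 to 54299034. The libraries did not keep strand, so reads in shared exons cannot be assigned with certainty: 16.3% of the exon bases of Chrnb2 are also exon of Adar and 2.12% of those of Ache are exon of the noncoding gene Gm42456, while no exon overlap was found for the other 8 genes. In RefSeq the spans of Chrnb2 and Adar share only 8 bases, while those of Chrna3 and Chrna5 share 1304 bases on opposite strands.

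The promoters of 4 of the genes are shown: those of the nested pair Chat and Slc18a3, and those of the genes with the highest and the lowest level. Each is the RefSeq sequence of GRCm38 from 250 bases before to 50 bases after the annotated start, read 5′ to 3′ along the gene, with CG dinucleotides in capitals. Chat is chr14:32465860-32466159, Slc18a3 is chr14:32464801-32465100, Chrna3 is chr9:55026513-55026812 and Slc5a7 is chr17:54298985-54299284, all on the minus strand.
Chat: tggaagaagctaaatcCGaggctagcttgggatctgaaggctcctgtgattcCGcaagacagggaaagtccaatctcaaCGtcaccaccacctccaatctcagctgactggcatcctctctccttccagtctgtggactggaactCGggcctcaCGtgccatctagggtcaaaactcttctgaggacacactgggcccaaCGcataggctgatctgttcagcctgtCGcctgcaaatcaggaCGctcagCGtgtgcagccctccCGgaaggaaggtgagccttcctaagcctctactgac
Slc18a3: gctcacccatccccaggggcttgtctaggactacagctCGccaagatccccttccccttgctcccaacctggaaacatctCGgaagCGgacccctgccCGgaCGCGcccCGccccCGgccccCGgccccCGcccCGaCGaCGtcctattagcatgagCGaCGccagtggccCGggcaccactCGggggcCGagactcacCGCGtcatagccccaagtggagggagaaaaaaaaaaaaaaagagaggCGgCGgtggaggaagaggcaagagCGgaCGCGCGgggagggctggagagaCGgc
Chrna3: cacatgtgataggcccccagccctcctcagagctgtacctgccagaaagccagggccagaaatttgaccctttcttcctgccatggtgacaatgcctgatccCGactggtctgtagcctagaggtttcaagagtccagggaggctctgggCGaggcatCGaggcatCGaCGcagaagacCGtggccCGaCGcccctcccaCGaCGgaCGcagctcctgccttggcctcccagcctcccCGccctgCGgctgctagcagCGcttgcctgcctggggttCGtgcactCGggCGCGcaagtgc
Slc5a7: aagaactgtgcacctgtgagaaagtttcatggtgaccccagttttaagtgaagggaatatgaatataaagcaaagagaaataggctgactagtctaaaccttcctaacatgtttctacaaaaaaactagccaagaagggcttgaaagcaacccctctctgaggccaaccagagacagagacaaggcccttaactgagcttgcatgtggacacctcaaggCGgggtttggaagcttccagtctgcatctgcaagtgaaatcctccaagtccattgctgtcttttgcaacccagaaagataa

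The CG count was 10 in the Chat window, 27 in Slc18a3, 18 in Chrna3 and 1 in Slc5a7, against a median of 7 over 32841 RefSeq promoters of the same length. The other windows held 35 CG in Chrna7, 33 in Chrna4, 30 in Ache, 14 in Chrnb4, 12 in Chrnb2 and 8 in Bche. Chrna4 was thus CG-rich although it had at most 10 counts in any library, and 5.42% of promoters held fewer CG than Slc5a7, the gene with the fewest counts. The GC box letters GGGCGG, searched on both strands, occurred in 7 of the 10 windows and in 35.7% of all promoters. No readout of promoter activity was made, and these letters are a description only.

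Quaking proteins bind RNA at a core of ACTAAC or ACTAAT (written with T for U), so the longest coding GENCODE transcript of each gene was searched for these letters on the transcript strand. They occurred in 4 of the 10 genes, and each match is shown with 10 bases on either side and the match in capitals. All lie in the 3′ UTR except the first of Chrnb2, which lies in the coding sequence.
Chat, chr14:32408713-32408718: gtcagcccctACTAACcctgctccca
Bche, chr3:73638645-73638650: tagctcaatgACTAATaaataggaca
Chrnb2, chr3:89763277-89763282: ccgtccagctACTAATggctctgagc
Chrnb2, chr3:89754723-89754728: gggtaaggggACTAACccttccggat
Slc5a7, chr17:54274734-54274739: gaatcaactcACTAACtatggactat
Slc5a7, chr17:54274376-54274381: caactgcccaACTAATcttataatat

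Ache, Slc18a3, Chrna3, Chrna4, Chrna7 and Chrnb4 held no match in these transcripts. Among coding transcripts within 10% of the same length, 42.8% held a match for Chat, 71.4% for Bche, 71.6% for Chrnb2 and 66.8% for Slc5a7. For the 6 genes without a match the share was 34.4% to 59.9%, and over the longest transcripts of all 21901 coding genes it was 43.3%. Introns were not searched, and the absence of the letters says nothing of binding.

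The nicotinic subunits Chrna3, Chrna7 and Chrnb2 were the most abundant of the 10 mRNAs, Chrnb4 lay below Ache, and Chat, the subunit Chrna4 and Slc5a7 were the scarcest. The median over the 6 libraries was 54.9 RPKM for Chrna3, 11.8 for Chrna7, 10.6 for Chrnb2, 4.91 for Ache, 2.33 for Chrnb4, 2.04 for Slc18a3, 1.36 for Bche, 0.0887 for Chat, 0.0318 for Chrna4 and 0.00376 for Slc5a7. The ranges over the libraries did not overlap between Chrna3 and Chrna7, between Chrnb2 and Ache, or between Bche and Chat. The range of Slc5a7 lay below that of Chrna4, but both had 7 counts in siQk replicate 2 and their order there reflects exon length alone. Every other pair of neighbours in this order overlapped: Chrna7 exceeded Chrnb2 in 4 of 6 libraries, Chrnb4 exceeded Slc18a3 in 4 of 6, Slc18a3 exceeded Bche in 5 of 6 and Chat exceeded Chrna4 in 5 of 6, while Ache was above Chrnb4 in 6 of 6. The mean level of Chrna3 was higher than that of 92.5% of all genes listed, that of Slc18a3 was above 53.3% and that of Chat above 37.2%.

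**Figure D1:**
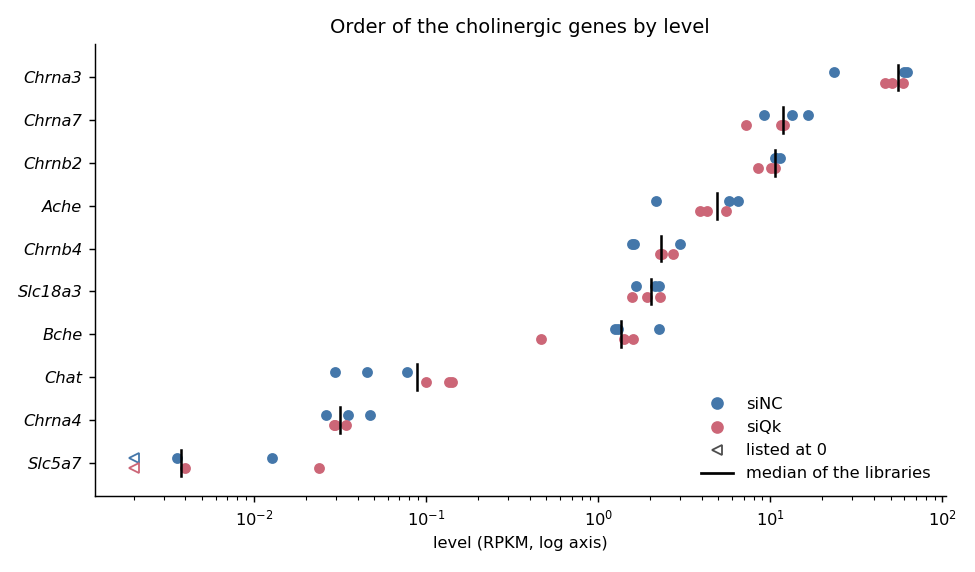
Level of each of the 10 genes in RPKM on a log axis, with 1 point per library (blue siNC, red siQk), the median of the 6 libraries as a black bar, and open triangles at the left edge for libraries listed at 0. Chrna3 lies at the top with a median of 54.9 RPKM, and Chat, Chrna4 and Slc5a7 lie below 0.15 RPKM in every library.

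Of the 10 genes, 7 passed the expression cut (average log2 CPM above 0, where CPM is the count scaled to the library total) and entered the test, and Chat, Slc5a7 and Chrna4 did not. None of the 7 was called changed (p under 0.01 and adjusted p under 0.1), where 0.0079% of the 12665 genes tested were called, which is Qk alone. At an unadjusted p under 0.05 the count was also 0 of 7, against 2.89% of all genes tested, and 0 of the 7 were called by DESeq2 (0.15% of all genes tested) and by edgeR's exact test (0.0395%). The smallest unadjusted p among the 7 was 0.212 and every adjusted p was 0.9996. The log2 fold change was above 0 in 2 of the 7 and below 0 in 5, against 50.8% above 0 over all genes tested, and the median was -0.09 beside 0.00 for all genes. In none of the 7 did the siNC and siQk libraries separate, against 8.84% of all genes tested. The SEs of the 7 were 0.11 to 0.62 on the log2 scale, with 3 libraries a group. The smallest change that could be called was not computed, and it can exceed the SE by far. In the same fit Isl1, a regulator outside the 10, was not called at 0.82 ± 0.10 (adjusted p = 0.9996).

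**Figure D2:**
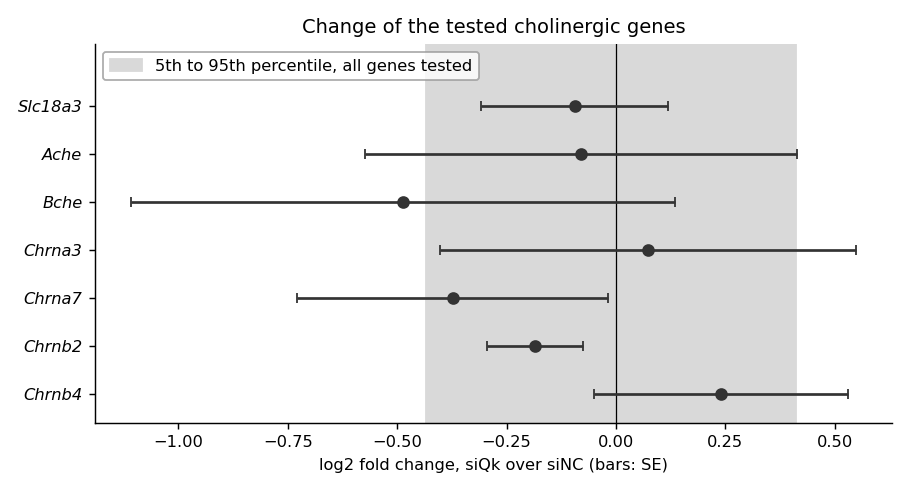
Log2 fold change of siQk over siNC for the 7 genes tested, with bars of ± 1 SE (n = 3 against 3) and the range from the 5th to the 95th percentile of all genes tested in grey. Bche (-0.49) lies just outside the grey range, and the bars of all but Chrna7 and Chrnb2 cross 0.

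Chat, the enzyme that makes acetylcholine, was low in every library. Its counts were 7, 17 and 9 in the siNC libraries and 21, 35 and 29 after knockdown, or 0.0297, 0.0777 and 0.0453 RPKM against 0.0997, 0.141 and 0.136 RPKM. Each siQk library was above each siNC library, and Chat was the only one of the 10 genes in which the groups separated. The mean was 0.0509 ± 0.0245 RPKM in siNC and 0.126 ± 0.0227 in siQk (SD, n = 3), so siQk stood at 247% of siNC, with a 2-sided exact permutation p of 0.1, the smallest that 3 against 3 allows. Summed over libraries, 33 counts in siNC (95% exact Poisson interval 22.7 to 46.3) compared with 85 in siQk (67.9 to 105), intervals that cover counting error only. Among the 3101 genes that lay under the expression cut with at least 10 counts in all, 9.26% had groups that did not overlap. A fit without the cut gave Chat a log2 fold change of 1.27 and an adjusted p of 0.996, so the difference was not called. Under edgeR's filterByExpr the value was 1.28 (adjusted p = 0.9998). Chat passes that filter in part through its higher siQk libraries, which favours genes that differ, so this value is no added support. The difference of mean log2 CPM (prior count 2) was 1.21 ± 0.36 (SE) and ran from 0.93 to 1.50 when each library was left out.

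Slc18a3 encodes VAChT, the transporter that loads acetylcholine into vesicles, and was more abundant than its host gene. Its level was 1.66, 2.25 and 2.15 RPKM in siNC and 2.29, 1.56 and 1.92 in siQk, from 202 to 257 counts a library. The groups overlapped throughout, with the highest library siQk replicate 1 and the lowest siQk replicate 2. The log2 fold change was -0.09 ± 0.21 and was -0.0185 without siNC replicate 3 and 0.04 without siQk replicate 2. The ratio of Slc18a3 to Chat, in RPKM and so per length of exon, was 55.8, 28.9 and 47.4 in siNC and 23.0, 11.1 and 14.1 in siQk. Its mean was 44.1 ± 13.8 in siNC and 16.1 ± 6.19 in siQk (SD, n = 3), groups that did not overlap (2-sided exact permutation p = 0.1, the smallest possible), and it rests on the same low Chat counts. Exons of Chat and Slc18a3 do not overlap.

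Slc5a7 encodes CHT1, the high-affinity choline transporter of cholinergic endings, and was at the limit of detection. It had 1, 0 and 3 counts in siNC and 0, 7 and 1 in siQk, for sums of 4 (95% exact Poisson interval 1.09 to 10.2) and 8 (3.45 to 15.8). In all but siQk replicate 2 the count was at or below 3, the limit that a count of 0 allows, so no level or difference could be read. Slc18a3 had at least 202 counts in each of these libraries.

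Ache, which breaks down acetylcholine, was the more abundant esterase. It measured 5.73, 6.48 and 2.16 RPKM in siNC and 4.31, 5.50 and 3.90 in siQk, and siNC replicate 3 was far below the other 5 libraries. The log2 fold change was -0.08 ± 0.49, and the sign varied with the libraries: it was -0.42 without siNC replicate 3 and -0.23 without siQk replicate 2, whereas leaving out siNC replicate 1 gave 0.07, siNC replicate 2 gave 0.17 and siQk replicate 3 gave 0.01. Bche, the broader esterase of plasma and glia, measured 1.25, 2.27 and 1.30 RPKM in siNC and 1.601, 0.467 and 1.41 in siQk, with siQk replicate 2 lowest and the other siQk libraries within the siNC range. Its log2 fold change of -0.49 ± 0.62 was larger in size than that of 93.0% of genes tested but did not pass (adjusted p = 0.9996). When each library was left out, it ran from -0.79 without siQk replicate 1 to -0.11 without siQk replicate 2. The ratio of Ache to Bche in RPKM was 1.67 to 4.57 in siNC, 2.69 and 2.77 in siQk replicates 1 and 3 and 11.8 in siQk replicate 2.

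Chrna3, the alpha3 subunit of ganglionic receptors, was the most abundant of the 10 mRNAs. It measured 23.4, 62.2 and 59.6 RPKM in siNC and 50.7, 59.0 and 46.1 in siQk. siNC replicate 1 stood apart below the other 5 libraries, which lay between 46.1 and 62.2 RPKM, and the groups overlapped. The log2 fold change was 0.07 ± 0.48, but -0.26 without siNC replicate 1, -0.03 without siQk replicate 2 and 0.29 without siNC replicate 3. Chrnb4, the beta4 subunit that pairs with alpha3, measured 1.56, 2.97 and 1.63 RPKM in siNC and 2.29, 2.36 and 2.71 in siQk, with siNC replicate 2 above all siQk libraries and the other siNC libraries below them (log2 fold change 0.24 ± 0.29). Leaving out siNC replicate 2 gave 0.57, siNC replicate 3 gave 0.12 and siNC replicate 1 gave 0.08. The ratio of Chrna3 to Chrnb4 in RPKM ran from 14.97 to 36.7 for these neighbours.

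Chrna7, which forms receptors of alpha7 alone, measured 9.23, 13.3 and 16.6 RPKM in siNC and 12.04, 7.24 and 11.6 in siQk. The lowest library was siQk replicate 2 and the highest siNC replicate 3, the libraries that also stood farthest from the rest over all genes. The log2 fold change of -0.37 ± 0.36 was not called (adjusted p = 0.9996) and was -0.13 without siNC replicate 3, -0.18 without siQk replicate 2 and -0.58 without siNC replicate 1. Chrnb2, the beta2 subunit of the main brain receptors, was the steadiest of the 10 genes at 11.4, 10.6 and 10.7 RPKM in siNC and 10.6, 8.53 and 10.2 in siQk. Its log2 fold change was -0.18 ± 0.11 (adjusted p = 0.9996), with siQk replicate 1 inside the siNC range and siQk replicate 2 lowest, and was -0.10 without siQk replicate 2. Chrna4, the usual partner of beta2 in brain, had 8, 10 and 5 counts in siNC and 6, 7 and 7 in siQk, or 0.0261 to 0.0474 RPKM. Its groups overlapped, and the difference of mean log2 CPM was -0.17 ± 0.18, which was -0.015 without siNC replicate 2 and -0.32 without siNC replicate 3.

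**Figure D3:**
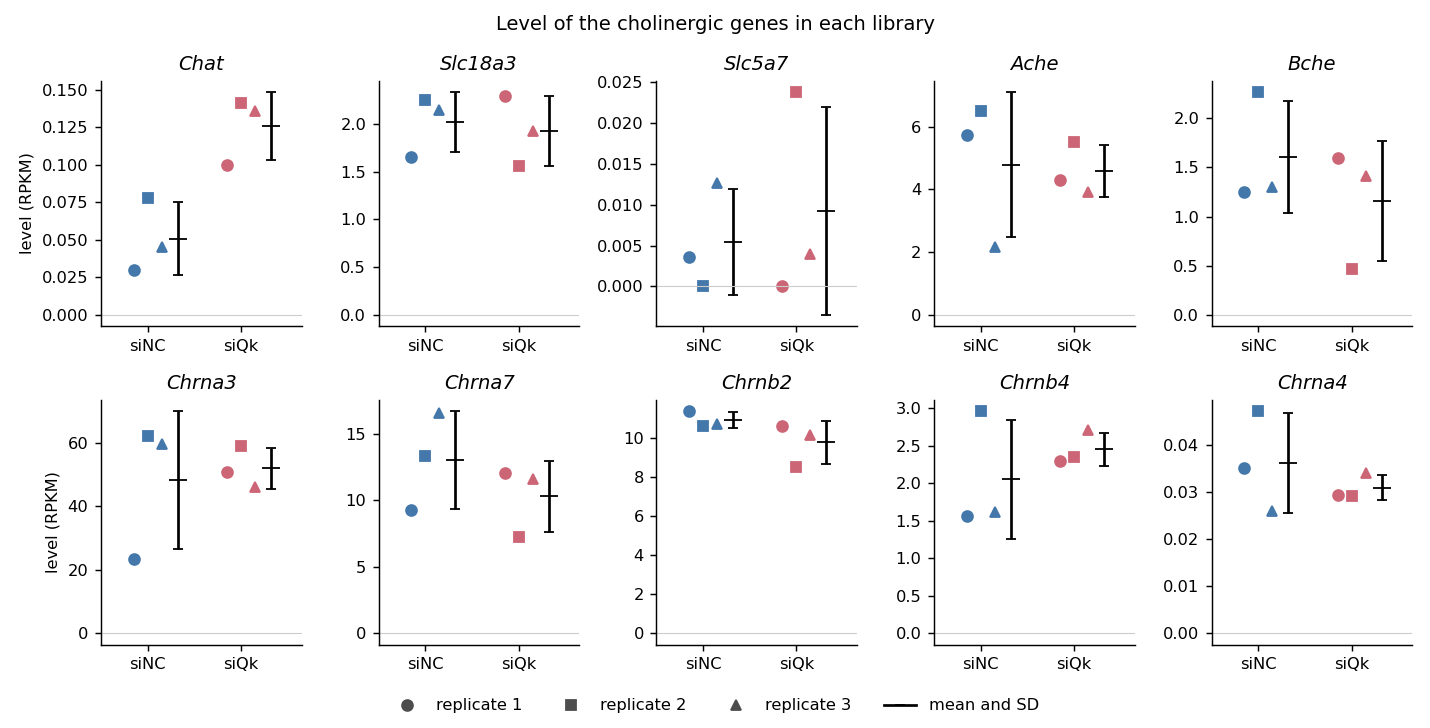
Level in RPKM of each of the 10 genes in each library (blue siNC, red siQk, with the marker shape giving the replicate number) and the mean with SD beside each group, on linear axes that include 0 and differ between panels. The groups separate in Chat alone, from 0.0297 to 0.0777 RPKM in siNC and from 0.0997 to 0.141 RPKM in siQk.

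Within each library Chrna3 made up most of the summed RPKM of the 5 nicotinic subunits, at 51.3% to 76.5%. Chrnb2 gave 11.1% to 24.99%, Chrna7 gave 9.38% to 20.2%, Chrnb4 gave 1.84% to 3.84% and Chrna4 gave at most 0.0772%. The lowest share of Chrna3 and the highest of Chrnb2 and Chrna7 fell in the same library, siNC replicate 1. mRNA shares are not subunit shares in receptors.

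The spread between libraries differed widely among these genes. The highest level was 4.86 times the lowest for Bche, 3.00 times for Ache, 2.66 for Chrna3, 2.29 for Chrna7, 1.90 for Chrnb4, 1.47 for Slc18a3 and 1.34 for Chrnb2. The median SD over the 6 libraries was 0.44 on the log2 scale for the 7 genes tested, beside 0.26 for all genes tested, with 5 of the 7 above that value and Chrnb2 (0.16) and Slc18a3 (0.24) below it. siQk replicate 2 was the library farthest from the gene mean in 4 of the 7 (Slc18a3, Bche, Chrna7 and Chrnb2), siNC replicate 1 in 2 (Chrna3 and Chrnb4) and siNC replicate 3 in 1 (Ache), each time on the low side. The deviations of siQk replicate 2 ran from -1.44 in Bche to 0.29 in Ache, while those of siQk replicates 1 and 3 had medians of 0.07 and 0.06 in size.

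**Figure D4:**
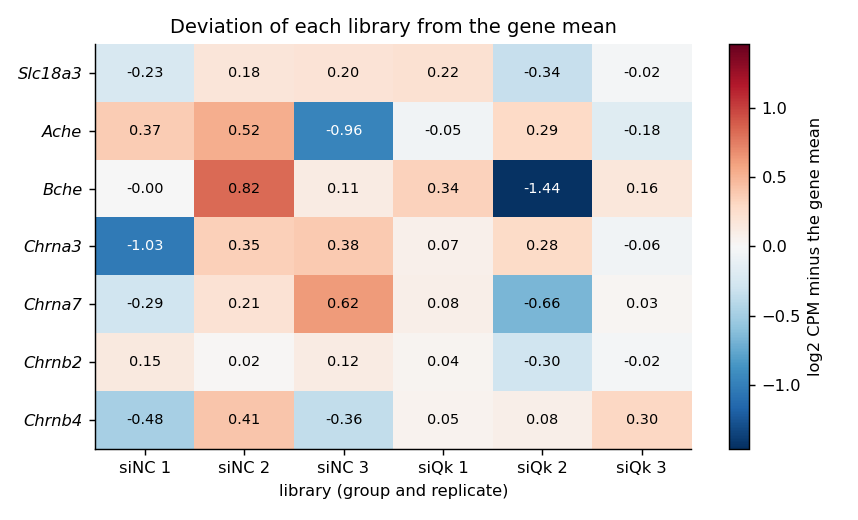
Deviation of each library from the mean of the gene, in log2 CPM after TMM scaling, for the 7 genes tested, with red above and blue below the mean. The darkest cells are Bche in siQk replicate 2 (-1.44), Chrna3 in siNC replicate 1 (-1.03) and Ache in siNC replicate 3 (-0.96).

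For the 3 most abundant genes tested, the genes with the most similar pattern over the 6 libraries were found by the root mean square difference of centred log2 CPM. They were Gabrd (0.10), Acer2 (0.12) and Wwp1 (0.13) for Chrna3, whose own root mean square deviation was 0.49. For Chrna7 (0.40) they were Mphosph9 (0.07), Ubox5 (0.09) and Fbxl7 (0.09), and for Chrnb2 (0.15) they were Fam18a (0.03), Arfip2 (0.04) and Slc29a1 (0.04). All 6 libraries enter each value, 12665 genes were searched, and how close a match other genes find was not tested.

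Genes that serve acetylcholine around these 10 were read from 7 lists of 66 genes, of which 64 were listed under the symbol used and 36 passed the expression cut. None of the 36 was called. An unadjusted p under 0.05 was found for 3 of them (8.33%, against 2.89% of all genes tested) and groups that did not overlap for 7 (19.4%, against 8.84%), and 20 were higher and 16 lower after knockdown (median log2 fold change 0.04). The lists were not tested as sets. By DESeq2 1 of the 36 was called (Isl1), where 0.15% of all genes tested were.

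Of the other nicotinic subunits, Chrna5, the accessory subunit of the cluster with Chrna3 and Chrnb4, was the only one of 6 above the cut. It measured 0.718 ± 0.317 RPKM in siNC and 1.21 ± 0.709 in siQk (SD, n = 3), groups that overlapped, with a log2 fold change of 0.73 ± 0.55 that was 0.14 without siQk replicate 2. Chrna2, Chrna6 and Chrnb3 were listed at 0 in every library. Chrna9 and Chrna10, with at most 12 and 3 counts a library, were lower in siQk without overlap. Of all genes under the cut with at least 10 counts in all, 9.26% had groups that did not overlap. These 5 subunits are named after their values were seen. Among 6 genes of the muscle receptor, Chrnb1 (1.17 ± 0.670 against 0.970 ± 0.164 RPKM) and the clustering protein Rapsn (1.36 ± 0.643 against 1.51 ± 0.503 RPKM) were tested and neither passed.

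Chrm4, a Gi-coupled muscarinic receptor, was the only one of 5 muscarinic genes above the cut. It measured 5.69 ± 1.08 RPKM in siNC and 6.18 ± 0.274 in siQk, a log2 fold change of 0.10 ± 0.15, and so lay above Ache in mean level. Of the chaperones of receptors and anchors of esterase, 2 of 10 listed were tested. Ric3, a chaperone of alpha7 and other nicotinic subunits, was 14.4 ± 2.63 RPKM in siNC and 13.4 ± 0.932 in siQk, and Prima1, which anchors acetylcholinesterase in neuronal membranes, was 2.52 ± 2.01 and 2.56 ± 0.568. The groups overlapped in both.

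Some mRNAs for choline uptake and acetyl-CoA supply lay far above that of Chat. Choline and acetyl-CoA themselves were not measured. Of 15 genes of choline uptake and phosphatidylcholine synthesis listed, 10 were tested, 4 of them higher and 6 lower in siQk, with 1 at an unadjusted p under 0.05 (2.89% of all genes tested) and 4 with groups that did not overlap (8.84% of all genes tested), and a median log2 fold change of -0.17. Slc44a1, a choline transporter of low affinity found in most cells, was highest at 32.9 ± 4.09 RPKM in siNC and 29.9 ± 8.96 in siQk. Chpt1, which joins choline to diacylglycerol, was 7.22 ± 1.05 RPKM in siNC and 5.33 ± 0.216 in siQk without overlap, with a log2 fold change of -0.46 ± 0.14 (adjusted p = 0.9996), and Slc44a2 was 7.42 ± 0.734 and 5.97 ± 0.638 without overlap (-0.34 ± 0.12). All 10 genes of acetyl-CoA supply were tested, 6 higher and 4 lower, with 0 at an unadjusted p under 0.05 (2.89% of all genes tested), 2 without overlap (8.84% of all genes tested) and a median of 0.11. Acly, which makes cytosolic acetyl-CoA from citrate, was 341 ± 24.7 RPKM in siNC and 411 ± 36.1 in siQk (0.24 ± 0.10), Pdha1 of the pyruvate dehydrogenase complex 52.0 ± 10.9 and 66.4 ± 4.77 (0.33 ± 0.17, and 0.19 without siNC replicate 3), and the citrate carrier Slc25a1 107 ± 29.9 and 142 ± 29.8 with overlap.

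**Figure D5:**
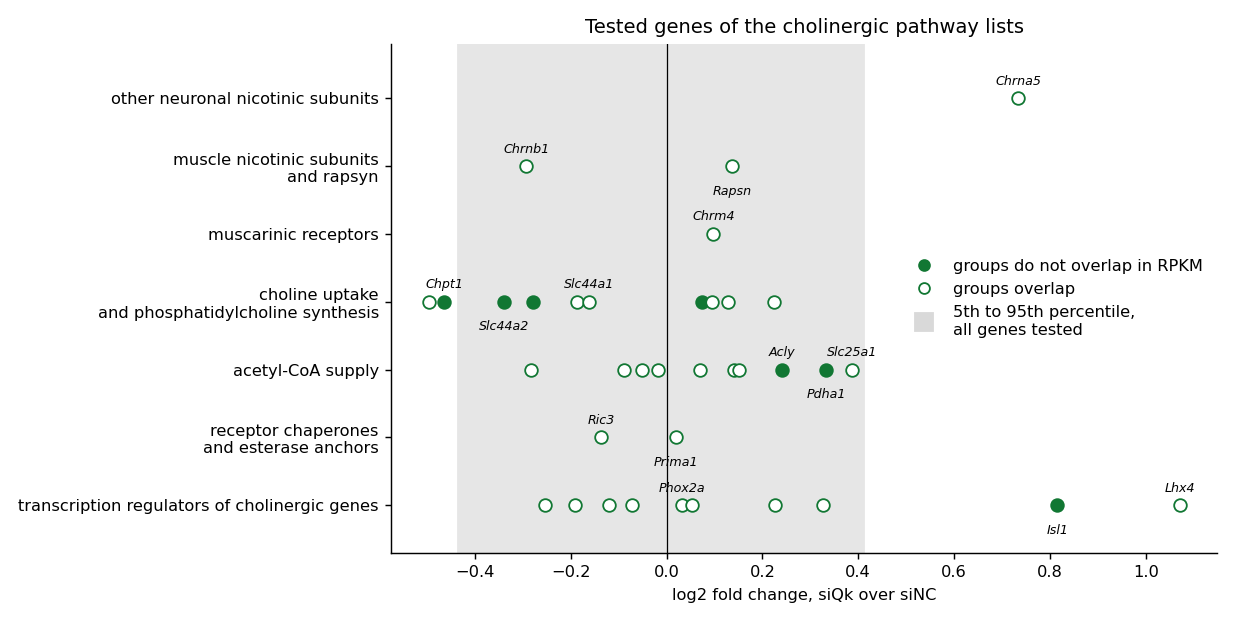
Log2 fold change of siQk over siNC for the 36 tested genes of the 7 lists, 1 point per gene, filled where the groups do not overlap in RPKM, with the 5th to 95th percentile of all genes tested in grey and the genes chosen by the naming rule labelled. Most points lie in the grey range, and Isl1, Lhx4 and Chrna5 lie above it at 0.82, 1.07 and 0.73, while Slc44a3 (-0.50) and Chpt1 (-0.46) lie below it.

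Transcription factors known to act on cholinergic genes were represented by 10 tested of 12, 6 higher and 4 lower in siQk (median 0.04), with 2 at an unadjusted p under 0.05 (2.89% of all genes tested) and 1 without overlap (8.84%). Isl1, which with Lhx3 drives the motor neuron program including Chat and Slc18a3, was 4.79 ± 0.0365 RPKM in siNC and 8.59 ± 0.937 in siQk without overlap. Its log2 fold change was 0.82 ± 0.10 (adjusted p = 0.9996), a difference that was known when the list was made and is no independent evidence of its direction, and Lhx4 was 0.411 ± 0.170 and 0.876 ± 0.281 with overlap (1.07 ± 0.40). Phox2a, a regulator of noradrenergic and visceral motor neurons, was the highest of the list at 118 ± 58.6 RPKM in siNC and 121 ± 16.7 in siQk.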

How the data were processed

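Libraries were made with the TruSeq RNA Sample Prep Kit v2, which keeps no strand, and sequenced on an Illumina NextSeq. The authors mapped reads with OLego to mm10 and counted genes with Quantas, as their methods state, with versions not given in the sources used here. They deposited, per library, an expected count and an RPKM for each of 23038 genes. Of all these counts, those of 0 included, 21.9% to 22.9% were not whole. RPKM could be rebuilt from the deposited counts, exon lengths and column totals. The files carry no coordinates, and locations and sequences come from GENCODE and RefSeq annotations of GRCm38, the same assembly as mm10.

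Counts were rounded and tested with edgeR 4.0.16 in R 4.3.3 (TMM scaling, average log2 CPM above 0, glmQLFit and glmQLFTest, Benjamini-Hochberg adjustment over all 12665 genes tested). Genes were called at p under 0.01 and adjusted p under 0.1. The study names edgeR, this expression cut and these cutoffs, but not the scaling or the test. It reported L3hypdh, Daam2 and Snap23 as lower besides Qk, where the quasi-likelihood test used here called Qk alone. The SE is that of the difference of mean log2 CPM with a prior count of 2. Single genes were also compared in RPKM by a 2-sided exact permutation test over 20 arrangements. The code was tested on simulated data. Groups came from the sample titles, and the labels call the libraries biological replicates. DESeq2 1.42.0, edgeR's exact test, other scalings and filters, a replicate block and each library left out were tried. Figures used matplotlib 3.10.9 in Python 3.11.15.

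The members and the gene lists were chosen with earlier results of these data known. Named were Qk, the 10 members, and of each list the tested gene with the highest mean RPKM, the 2 with the smallest p and any gene called. No pair of libraries agreed within sampling noise (smallest chi-square per degree of freedom 21.4).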

Additional observations from a re-analysis of the deposited data

How the results depend on the processing

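None of the 7 genes tested was called under any of the 15 alternatives, and their median log2 fold change stayed between -0.24 and -0.04. Chat was tested only without the expression cut and under filterByExpr, and Slc5a7 and Chrna4 only without the cut. None of these was called there, and the other alternatives did not test them. Qk remained called at -2.96 with the replicate block and ran from -3.19 to -2.67 with a library left out, losing its call without siNC replicate 1. The count of genes called was 19 by DESeq2, 5 by edgeR's exact test and 0 to 1 with a library left out, and that of the pathway lists was 1 by DESeq2 (Isl1, 0.81, adjusted p = 0.0329). The deviations of same-numbered libraries had correlations of r = 0.21, 0.01 and -0.17. Differently numbered libraries were not compared in this way, so whether same-numbered libraries share a culture or batch was not tested. With the replicate number as a block 1 gene was called, and Ache turned to 0.035. With a library left out, the direction turned for Slc18a3 (-0.24 to 0.036), Ache (-0.42 to 0.17), Chrna3 (-0.26 to 0.29), Rapsn (-0.20 to 0.38), Chrnb1 (-0.55 to 0.28), Chrm4 (-0.026 to 0.21), Slc44a1 (-0.40 to 0.031), Ric3 (-0.24 to 0.051), Prima1 (-0.33 to 0.86) and Phox2a (-0.32 to 0.25), none of them called. The difference of mean log2 CPM of Slc5a7, which was not tested, was 0.21 and ran from -0.37 without siQk replicate 2 to 0.64, and was -0.13 without siNC replicate 2. The cause was not tested. Each of the scalings moved the median of all genes by less than 0.1 on the log2 scale. Counts of at most 10 a library for Slc5a7 and Chrna4 limit what can be said of them.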

Other observations

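Of 16 markers of other transmitters, 9 had a higher mean level over the 6 libraries than Chat (0.0883 RPKM) and 7 a lower one. Of the 16 genes 8 passed the expression cut, and 0 of the 8 were called (0.0079% of all genes tested), had an unadjusted p under 0.05 (2.89%) or had groups that did not overlap (8.84%). Dbh, which makes noradrenaline, was 37.5 ± 10.7 RPKM in siNC and 46.1 ± 24.8 in siQk (SD, n = 3). Th, the rate-limiting enzyme of catecholamine synthesis, was 24.0 ± 16.9 and 17.3 ± 3.63, with a range of 5.43 to 38.3 over the 6 libraries. Tph2 of serotonin synthesis was 4.88 ± 1.45 and 5.34 ± 0.581, and the vesicular GABA transporter Slc32a1 was 3.95 ± 1.66 and 4.15 ± 0.269. Ddc of monoamine synthesis had a mean of 3.86 RPKM over the 6 libraries, the vesicular transporters Slc18a2 and Slc17a7 2.16 and 1.89, and Gad2, which makes GABA, 1.81. Its paralog Gad1 had at most 4 counts in any library, and the serotonin transporter Slc6a4 had a mean of 0.0345 RPKM. The glycine transporter Slc6a5 (0.0392 RPKM) and the vesicular glutamate transporter Slc17a8 (0.0465 RPKM) also lay below Chat. The plasma membrane transporters Slc6a2 and Slc6a3 had at most 2 counts in any library, and Slc17a6 was listed at 0. The summed level of the 16 genes was 49.6 to 95.3 RPKM in siNC and 59.0 to 110 in siQk. The genes named here were picked from the list after their values were seen.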
